A study of Mus musculus with 6 samples.

Results

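The GIMAP genes (GTPases of the immunity-associated protein family) were examined as the 8 members that carry this symbol in the deposited tables: Gimap1, Gimap3, Gimap4, Gimap5, Gimap6, Gimap7, Gimap8 and Gimap9. They are 8 of 24421 gene symbols, and 7 of them had enough counts to enter the fit, as did 12892 symbols in all. The family was picked with the difference between pressure and control already known. The levels and fold changes of its members below are therefore a description, and so are their calls past a threshold. No p-value is given for the members. RNA came from primary mouse liver sinusoidal endothelial cells (LSECs) of genotype "wild", the perforated endothelium of the liver, taken out of liver cell suspensions with beads against CD146 (the product of Mcam). All cells were plated overnight on collagen I and kept without serum for 6 h. In the pressure group (n = 3), the next 8 h brought repeated rises of hydrostatic pressure from 101 to 135 kPa and back (absolute values, 0.01 Hz); the control group (n = 3) had no such stimulation. The labels give the controls no duration or handling for those 8 h, nor a sex, an age or the number of mice, so culture time and handling cannot be told apart from pressure, and a p-value here weighs a difference against the spread among 3 libraries a group, possibly of technical origin.

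GIMAP proteins share a GTP-binding AIG1 domain and are best known from lymphocytes, where they affect survival and development, but endothelial cells express several of them too. Gimap1, Gimap3 and Gimap5 carry a membrane anchor at the carboxyl end, while Gimap4 and Gimap6 are largely cytosolic. Gimap5 matters in this tissue, since mice that lack it lose normal liver sinusoidal endothelium and develop portal hypertension.

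The 8 genes form 1 cluster on mouse chromosome 6, from 48647234 to 48770851 (124 kb; GRCm38, GENCODE M21), and all are annotated as protein-coding. In genome order they are Gimap8, Gimap9, Gimap4, Gimap6, Gimap7, Gimap1, Gimap5 and Gimap3. Gimap6 (48701582 to 48708225) and Gimap3 (48764464 to 48770851) lie on the minus strand and the other 6 on the plus strand. Gimap5 spans 48746197 to 48754210, Gimap1 48739054 to 48743795, Gimap4 48684549 to 48692060 and Gimap8 48647234 to 48660875. Each span is the whole gene body, introns included. RefSeq promoters were matched for 8 of 8 members (Gimap8 has a pair of listed starts). The 250 bases before the RefSeq start (GRCm38.p6) are shown for the most abundant member, Gimap6, for Gimap5, and for Gimap3, the member with the lowest fold of control. Capitals mark AGGAAG and GGAAGT, core letters of sites for ETS factors, a family that includes regulators of endothelial genes, read on both strands. The sequences run 5′ to 3′ in the direction of the gene, at chr6:48708245-48708494 (minus strand) for Gimap6, chr6:48745947-48746196 (plus strand) for Gimap5 and chr6:48770852-48771101 (minus strand) for Gimap3.
Gimap6: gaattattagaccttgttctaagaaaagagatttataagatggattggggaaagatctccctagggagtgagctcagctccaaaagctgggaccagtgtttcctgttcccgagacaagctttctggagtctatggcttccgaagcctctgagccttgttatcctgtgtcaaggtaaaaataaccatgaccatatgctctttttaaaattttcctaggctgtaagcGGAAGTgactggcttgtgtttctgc
Gimap5: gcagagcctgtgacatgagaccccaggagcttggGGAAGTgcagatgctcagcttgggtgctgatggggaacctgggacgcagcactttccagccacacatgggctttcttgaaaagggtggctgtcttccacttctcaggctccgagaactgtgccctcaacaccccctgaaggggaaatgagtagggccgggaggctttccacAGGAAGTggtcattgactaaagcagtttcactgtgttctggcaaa
Gimap3: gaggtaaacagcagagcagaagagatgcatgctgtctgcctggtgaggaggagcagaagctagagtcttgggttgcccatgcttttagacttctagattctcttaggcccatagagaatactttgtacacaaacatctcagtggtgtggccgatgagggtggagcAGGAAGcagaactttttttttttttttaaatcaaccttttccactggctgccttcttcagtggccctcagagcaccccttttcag
In windows that also hold the first 50 bases after the start, AGGAAG or its reverse complement occurred in the promoters of 7 of 8 members, all but Gimap6, and in 35.4% of 32851 RefSeq promoters of the same length. GGAAGT, searched after these promoters had been seen, occurred in 4 members (Gimap1, Gimap5, Gimap6 and Gimap9) and in 23.8% of promoters. In the 250 bases before the start alone it occurred in 2 members, Gimap5 and Gimap6, and in 19.7% of promoters. It overlaps AGGAAG, and at Gimap5 both words share letters in 1 match. CCACCC, letters bound by Krüppel-like factors, occurred in 5 members (Gimap3, Gimap4, Gimap5, Gimap8 and Gimap9) and in 31.5% of promoters. TGTGGT, for RUNX factors, occurred in Gimap1, Gimap4 and Gimap7 (16.8% of promoters), and TATAAA in Gimap6 alone (13.6%). No member held AGATAA, bound by GATA factors, which 11.2% of promoters held. The same was true of ACAATG, a word of SOX factors found in 12.6% of promoters, and of TGANTCA, the AP-1 word found in 7.81%. A match is a run of letters, not a measured binding site.

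Library totals lay between 12922959 and 18655749 counts. Pressure replicate 3, the shallowest, stood apart from the other pressure libraries: chi-square over its degrees of freedom came to 16.56 and 23.09 for the pairs that include it and 5.196 for the pressure pair without it, against 2.961 to 5.818 among controls. Values without it are therefore given where they matter. Levels are CPM (counts per 1e6 of the library's total, that total first multiplied by its TMM factor). The factors were 1.074 to 1.083 in controls and 0.9094 to 0.9457 under pressure, so levels do not sum to 1e6 and are raised under pressure relative to library totals. Fold changes set pressure against control, followed after ± by a standard error worked out from edgeR's fold change and F statistic. Endothelial genes were abundant in both groups, as Pecam1 (1127 ± 17.5 CPM in controls, 1095 ± 36.8 under pressure; SD, n = 3 each) shows. Pecam1 changed by -0.04 ± 0.060 on the log2 scale (edgeR adjusted p = 0.544). Mcam, the gene for the selected surface protein, is given by its list below.

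Under pressure, transcripts of 6 of the 7 measurable GIMAP genes were 2.07- to 9.67-fold lower than in controls, while Gimap6, the most abundant of them, was not (log2 fold change 0.15). In edgeR's quasi-likelihood test across all genes (Benjamini-Hochberg adjusted p under 0.05), those 6 members were called lower and 0 were called higher. Over all 12892 genes tested, 35.1% were called lower and 33.7% higher; since the members were picked on this contrast, nothing is read from their count. At an unadjusted p under 0.05 the count of higher members was 1, and DESeq2 also gave 1 (Gimap6 in both). The median log2 fold change of the 7 members was -1.75, against -0.02 over all genes tested.

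Among the members with a membrane anchor, Gimap5, which supports the survival of lymphocytes and of liver endothelium, gave 33.5, 31.2 and 36.5 CPM in the 3 control libraries and 8.60, 10.2 and 13.1 CPM in the 3 pressure libraries. The groups did not overlap, and pressure replicate 3 was the highest of its group. The log2 fold change was -1.68 ± 0.143, or 3.20-fold lower. Without pressure replicate 3 it was -1.84. Gimap1, which is needed for lymphocytes to develop and persist, stood at 30.1, 36.5 and 33.3 CPM in controls against 5.86, 7.17 and 10.6 under pressure. Here too the groups were apart and pressure replicate 3 was nearest to the controls. The change was -2.10 ± 0.177 (4.30-fold lower), and -2.35 without that library.

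Gimap3, a close relative of Gimap5 whose product has been tied to organelle membranes and to the inheritance of mitochondrial DNA, was scarce in both groups. Its deposited counts were 65, 68 and 35 in controls and 3.5, 5.5 and 3.5 under pressure. Levels, which rest on rounded counts, were 3.25, 3.63 and 2.31 CPM against 0.249, 0.365 and 0.327 CPM. All 3 pressure values lay below all 3 control values. The log2 fold change of -3.27 ± 0.321 was the most negative of the family, and 30 of the 12892 genes tested (0.233%) had a lower one. The fit on unrounded counts gave -3.43. With so few reads under pressure, the size of this change is less certain than that of the other members.

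Of the members without such an anchor, Gimap4, a GTPase that speeds the death of T cells, had closely spaced replicates. Its levels were 55.1, 57.2 and 58.4 CPM in controls against 14.6, 15.4 and 16.2 under pressure. The spread within a group was small beside the gap between groups, and the log2 fold change was -1.88 ± 0.0887 (3.69-fold lower). Gimap8, the largest family protein, with several GTPase domains in tandem, was the second most abundant member at 141, 147 and 159.8 CPM in controls. Under pressure it stood at 41.5, 42.9 and 48.5 CPM, which is a log2 fold change of -1.75 ± 0.0902 (3.37-fold lower). Gimap9 showed the smallest fall of the 6. It stood at 13.5, 15.8 and 17.8 CPM in controls against 6.54, 6.93 and 9.42 under pressure, a log2 fold change of -1.05 ± 0.161 (2.07-fold lower). Its groups were apart, with pressure replicate 3 again the highest of the pressure libraries, and without that library the change was -1.21.

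Gimap6, whose product binds a protein of the ATG8 family and has been tied to autophagy, departed from the rest. It gave 298, 298 and 307 CPM in controls against 346, 333 and 322 under pressure. Every pressure library lay above every control library, but by little: the log2 fold change was 0.15 ± 0.0657, and 58.3% of genes tested had a lower one. Non-overlap of this kind, pressure above control, held for 34.9% of all genes tested, and pressure below control, as in the 6 other members, for 37%. The direction for Gimap6 depended on the scaling. It was 0.17 with RLE factors, 0.04 with upper-quartile factors and -0.06 with library totals only, and library totals also move the median of all genes, from -0.02 to -0.23. DESeq2, RLE factors and the fit without pressure replicate 3 called it higher. The other 6 members were lower under all 4 scalings, Gimap9 least (-1.26 to -1.03).

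Gimap7, which in studies of the human protein activates the GTPase of a partner member, was close to absent. Its counts were 3, 11 and 11 in controls and 2, 0 and 2 under pressure, so at most 0.727 CPM in a library. The groups overlapped in CPM. The filter on low counts kept it out of the fit; with no such filter its log2 fold change was -2.31 and it was called lower, which makes 7 lower members.

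**Figure D1:**
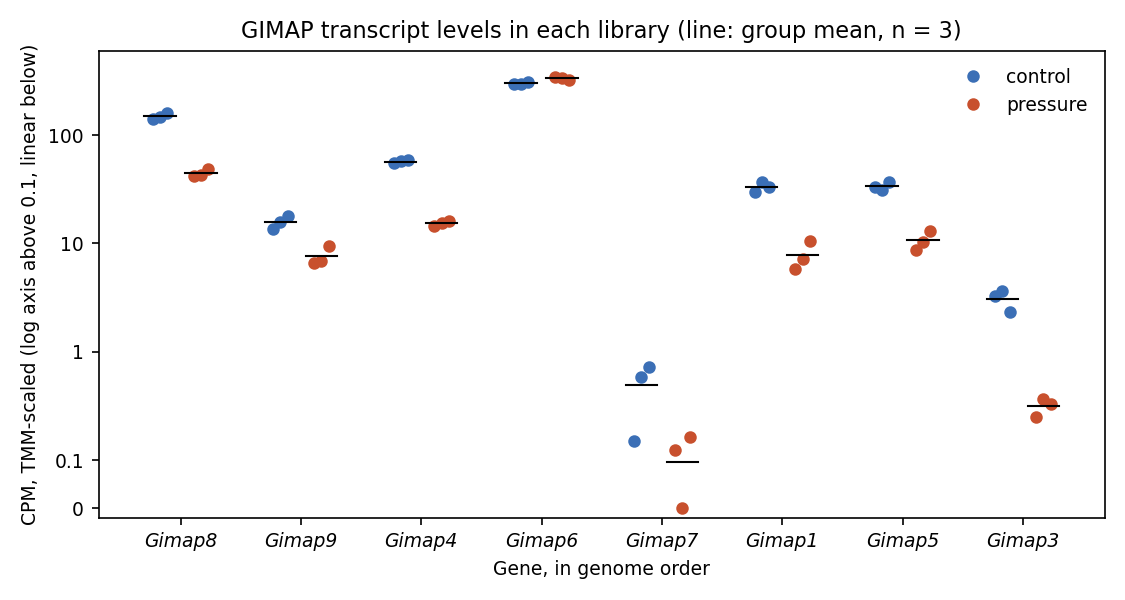
Level of each GIMAP gene in each library (CPM, TMM-scaled; log axis above 0.1 CPM and linear below), with genes in genome order, points for single libraries and a line for the group mean (n = 3). Control and pressure points are apart for Gimap8, Gimap9, Gimap4, Gimap1, Gimap5 and Gimap3, close together for Gimap6, and near 0 for Gimap7.

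**Figure D2:**
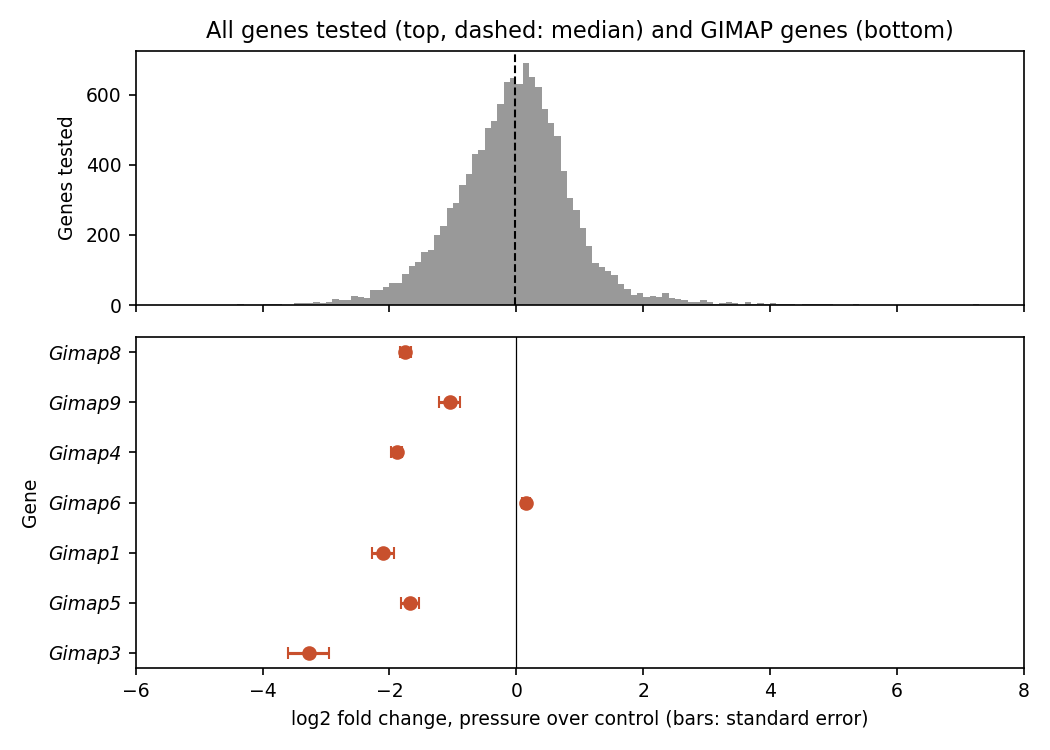
Top, number of genes by log2 fold change (pressure over control) for all 12892 genes tested, with a dashed line at the median of -0.02; bottom, the 7 fitted GIMAP genes with standard errors. Gimap6 sits near 0 at 0.15, and the other 6 lie between -3.27 and -1.05.

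Compared per length, which allows levels to be set between genes, Gimap6 led in both groups. In controls it stood at 86.0 ± 1.57 CPM per kb of exon (SD, n = 3), followed by Gimap8 at 40.3 ± 2.63 and Gimap4 at 31.0 ± 0.909. Next came Gimap1 (10.8 ± 1.03), Gimap9 (9.56 ± 1.33) and Gimap5 (8.14 ± 0.645), whose neighbours in this order overlapped in their libraries, then Gimap3 (1.19 ± 0.262) and Gimap7 (0.21 ± 0.129). Under pressure the order was Gimap6 (95.5 ± 3.36), Gimap8 (12.0 ± 0.996), Gimap4 (8.40 ± 0.427) and Gimap9 (4.65 ± 0.950), with Gimap1 (2.56 ± 0.790) and Gimap5 (2.56 ± 0.551) level with each other. Gimap3 (0.122 ± 0.0229) and Gimap7 (0.0413 ± 0.0368) closed it. Exon lengths join all annotated isoforms of a gene, so a gene read mainly from a short isoform has too low a value on this scale.

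Shares within the family need no scaling between libraries. Of all GIMAP counts in a library, Gimap6 made up 50.7% ± 1.01 in controls and 79.4% ± 2.60 under pressure. Gimap8 went from 25.1% ± 0.721 to 10.5% ± 0.874 and Gimap4 from 9.60% ± 0.115 to 3.67% ± 0.198. Gimap5 held 5.69% ± 0.341 in controls and 2.53% ± 0.545 under pressure. Per 100 counts of Gimap6, the control libraries held 11.3, 10.5 and 11.9 counts of Gimap5 and the pressure libraries 2.49, 3.05 and 4.06. Summed over the 8 genes, the family stood at 593 ± 21.2 CPM in controls against 419.9 ± 3.87 under pressure, and without Gimap6 at 292 ± 16.2 and 86.2 ± 10.7 CPM. Across bulk libraries, fewer GIMAP-expressing cells and less GIMAP RNA per cell cannot be told apart.

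**Figure D3:**
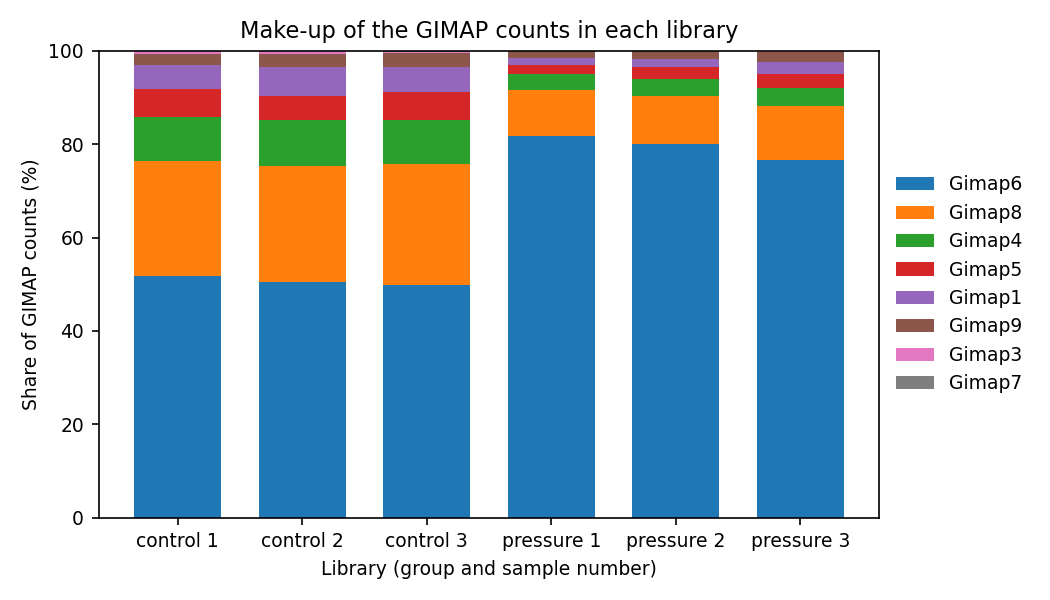
Share of each GIMAP gene in the summed GIMAP counts of a library (%), for the 3 control and 3 pressure libraries. The Gimap6 part grows from a mean of 50.7% in controls to 79.4% under pressure, and the parts of Gimap8, Gimap4, Gimap5 and Gimap1 are smaller under pressure.

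Some GIMAP counts could include reads of other transcripts. Of the distinct runs of 101 bases (the read length) in the annotated transcripts, 40 were shared by Gimap3 and Gimap5, which is 1.61% of those of Gimap3 and 0.942% of those of Gimap5. With both genes summed before the fit, the log2 fold change was -1.77. For Gimap1, 31.3% of the runs also occurred in another gene, on either strand, nearly all of them in the antisense transcript Gimap1os (879 of 977), which overlaps 2391 bases of the gene. The labels name a stranded library kit, but the strand setting of the counting is not given in the sources used here, so Gimap1 counts may hold antisense reads. The read-through gene Gm28053 overlaps Gimap7, Gimap1 and part of Gimap5 on the same strand and shares 98 runs with Gimap1 and 54 with Gimap5. Gimap4, Gimap6, Gimap7, Gimap8 and Gimap9 shared no such run with another annotated gene.

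GIMAP genes are lymphocyte genes as well, and lymphocyte markers were scarce. Of all genes tested, 35.1% were called lower and 33.7% higher, and the called counts below stand beside these shares. Of 15 listed T cell markers with a row, 9 stayed below 1 CPM in every library, among them Cd3e (11, 7 and 10 counts in controls and 0, 8 and 5 under pressure) and Cd8a (at most 3 counts). Their summed level was 24.2 to 25.2 CPM in controls and 19.3 to 22.9 CPM under pressure, with Il7r, a cytokine receptor gene, the most abundant at 11.9 ± 0.777 and 8.74 ± 1.91 CPM. Trac, Trbc1 and Trbc2, also on the list, had no row and are not in this sum. Control levels were 301 CPM for Gimap6, 149 for Gimap8, 56.9 for Gimap4, 33.8 for Gimap5 and 33.3 for Gimap1. Gimap9 stood at 15.7 and Gimap3 at 3.06 CPM. A sum over markers does not measure how much RNA a cell type gave, so these levels cannot be weighed against it. Of the 8 T cell markers tested, 2 rose and 2 fell: Cd28 and Cd247 rose, and Cd4 and Il7r fell. The count of higher markers was 1 with library totals or with any 1 library but pressure replicate 3 left out, and 4 were lower without pressure replicate 3. The sum for 9 B cell markers was 30.6 to 35.2 CPM in controls and 15.9 to 17.7 CPM under pressure, and all 3 tested markers fell (Cd22, Fcrla and Blk). The lower count was 2 with DESeq2 and without control replicate 1, control replicate 3 or pressure replicate 1. With no low-count filter it was 4. Cd22, an inhibitory B cell receptor gene, gave 21.9 ± 2.02 and 11.3 ± 0.452 CPM (log2 fold change -0.95 ± 0.109, edgeR adjusted p = 2.43e-05), whereas the B cell genes Ms4a1 and Pax5 had at most 13 counts in any library. Cd79a, part of the B cell receptor, had 7 to 9 counts in controls and 44, 14 and 6 under pressure and was not tested; without pressure replicate 3, 2 B cell markers were called higher. Of the 10 NK cell markers, 8 stayed below 1 CPM in every library, and the list summed to 4.96 to 6.34 CPM in controls and 4.49 to 5.35 CPM under pressure. Of the 4 tested, Gzmb, a cytotoxic granule gene, rose, Klrb1c and Klrk1, receptor genes, fell, and DESeq2 called 1 lower. The part of lymphocyte RNA in the GIMAP differences was not tested. The endothelial list, 13 genes tested, summed to 6449 to 6745 CPM in controls and 6494 to 6906 CPM under pressure, with 3 genes higher and 6 lower and a median log2 fold change of -0.15. Mcam (0.97 ± 0.124), Cldn5 (0.63 ± 0.111) and Esam (0.62 ± 0.0753) were the 3 that rose. The 6 that fell were Robo4 (-0.87 ± 0.0691), Kdr (-0.73 ± 0.0722), Erg (-0.56 ± 0.0733), Tie1 (-0.20 ± 0.0677), Eng (-0.19 ± 0.0775) and Tek (-0.17 ± 0.0674). Without control replicate 1 or 2 the lower count was 3. Of 12 genes of LSEC identity, 9 fell, with a median of -0.70. The scavenger receptor gene Stab1 led that list at 1498 ± 39.0 CPM in controls against 916 ± 90.6 under pressure. Macrophage markers were plentiful, at 5757 to 6339 CPM in controls and 5496 to 5975 CPM under pressure summed over 11 genes, of which 2 rose and 2 fell (0 and 5 with library totals only). Without pressure replicate 3, 5 of them were lower and 3 higher.

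Genes around the cluster were described by position, to show how the GIMAP changes sit in their region. Within 1 Mb of either end, 36 further genes had a row and 26 were tested. Of these, 14 were lower and 7 higher under pressure (5 higher with library totals only), beside 35.1% lower and 33.7% higher of all genes tested. Their median log2 fold change was -0.57 against -0.02 over all genes. The nearest neighbour on the Gimap8 side, AI854703, lies 13.5 kb away and was low, at 1.43 ± 0.345 CPM in controls and 0.711 ± 0.0491 under pressure (-0.99 ± 0.294, edgeR adjusted p = 0.0116). On the Gimap3 side the nearest was Tmem176b, a membrane protein gene of immune cells, 63 kb away. It gave 31.5, 34.0 and 35.9 CPM in controls against 32.2, 32.8 and 46.0 under pressure, so the groups overlapped (0.13 ± 0.136, edgeR adjusted p = 0.425). Among genes with a row, Gimap3, with the most negative change in the region, lies between Tmem176b and Gimap5 (-1.68 ± 0.143). The neighbours with the smallest p were the zinc-finger genes Zfp467 (-2.40 ± 0.168, 201 kb away) and Zfp777 (1.31 ± 0.0955, 598 kb away), Gpnmb, a glycoprotein gene of macrophages (-0.83 ± 0.0683), and Tra2a, a splicing factor gene (0.96 ± 0.0794). Zfp467 stood at 18.7, 18.7 and 15.1 CPM in controls against 2.55, 3.89 and 3.52 under pressure. Mir704 lies within Pdia4, and the 2 rows may share reads.

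**Figure D4:**
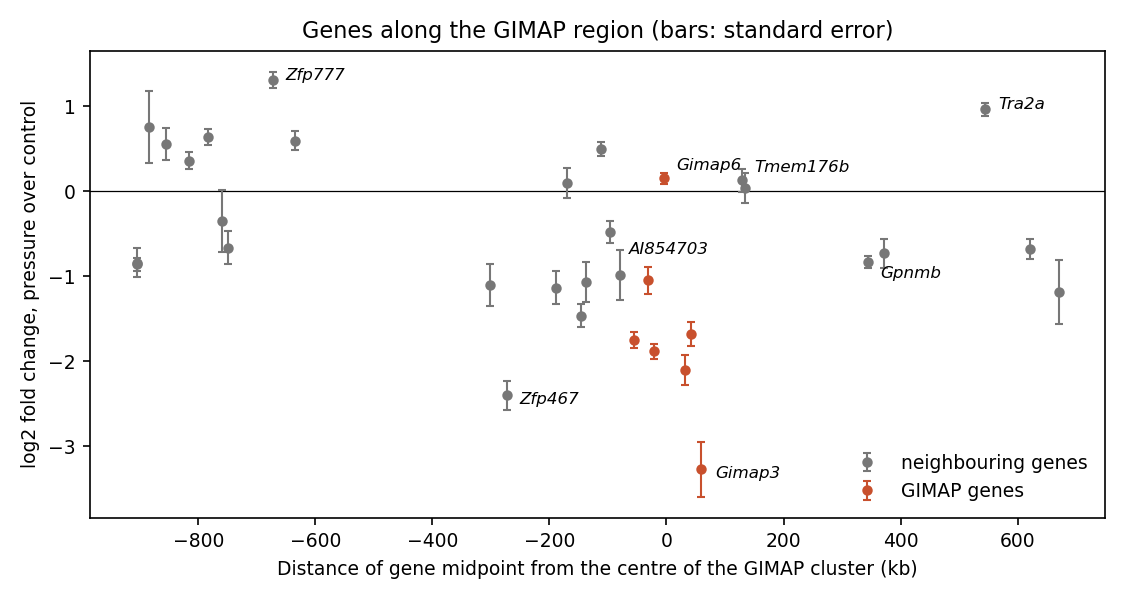
log2 fold change (pressure over control, bars are standard errors) of the tested genes against the distance of their midpoint from the centre of the GIMAP cluster (kb). GIMAP genes are in red-orange: Gimap6 at 0.15 lies amid 6 members at -1.05 or below, and neighbours on both sides range from -2.40 (Zfp467) to 1.31 (Zfp777).

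The list of genes whose products have been linked to GIMAP proteins held 18 genes (the BCL2 family, HSC70, the ATG8 family, GSK3 beta, GATA4, casein kinase subunits and ceramide synthases), all tested. Of these, 6 were higher and 4 lower, beside 33.7% higher and 35.1% lower of all genes tested, so the counts do not set the list apart. Its median log2 fold change was 0.14 against -0.02 for all genes. With library totals only, 3 were higher and 7 lower, and with upper-quartile factors 4 and 6, so the balance of the list has no fixed sign. The survival gene Mcl1 rose from 378 ± 4.39 to 684 ± 61.4 CPM (0.85 ± 0.0762, edgeR adjusted p = 4.21e-06), and Bcl2, its relative, fell from 17.8 ± 0.621 to 9.70 ± 1.02 CPM (-0.88 ± 0.113, edgeR adjusted p = 5.50e-05). Gsk3b, the kinase whose activity Gimap5 has been reported to restrain in T cells, gave 145, 136 and 149.8 CPM in controls against 262, 249.5 and 204 under pressure (0.73 ± 0.0976, edgeR adjusted p = 6.80e-05). Gabarap, of the ATG8 family of autophagy proteins, fell by 0.57 (SE 0.0780), while Gabarapl2, the relative that binds Gimap6, gave -0.01 ± 0.0847 (edgeR adjusted p = 0.887). Gata4, the transcription factor that sets LSEC identity and that has been placed downstream of Gimap5 in liver endothelium, stood at 229, 221 and 209.8 CPM in controls against 234, 240.1 and 252 under pressure. Its groups were apart by a narrow margin and the change was 0.14 ± 0.0710 (edgeR adjusted p = 0.105).

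Other families of guanine nucleotide-binding proteins were counted in the same way, again beside 33.7% higher and 35.1% lower of all genes tested. Of 20 interferon-inducible GTPases, which restrict pathogens at membranes, 7 were higher and 5 lower (3 and 5 with library totals only), with a median of 0.13. Gbp9 and Gbp7, of the guanylate-binding proteins, fell by 1.23 and 1.64 on the log2 scale (SE 0.0870 and 0.125). Of the immunity-related GTPases, Irgm2 gave -0.80 ± 0.0858 and Irgm1 0.63 ± 0.0975. Several of these genes have near-identical copies and fractional deposited counts, so the split between copies is uncertain. Of 13 septins, filament-forming GTPases related in fold to the GIMAP domain, 10 were tested, 4 were higher and 5 lower (3 and 5 with library totals only), with a median of 0.06. Sept10 stood at 37.1, 42.5 and 42.4 CPM in controls against 10.8, 11.4 and 11.3 under pressure (-1.86 ± 0.101). Sept8 and Sept1 also fell, by 0.89 and 1.73, and Sept7 rose by 0.50. These 8 GTPase genes were named from those past the edgeR threshold, so that all 8 passed follows from the choice. Irgm1 had the largest edgeR adjusted p among them, 0.000192. The GIMAP median of -1.75 lay below those of both families. The GIMAP genes were picked with this contrast known, so nothing is read from that order, and the difference was not tested.

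The profile of the family over the 6 libraries, taken as the mean of the 7 members' centred log2 CPM, was matched against 9799 other genes with a mean of at least 5 CPM. Pearson's r above 0.99 was reached by 550 of them (5.61%). The 5 most alike were Banp, a nuclear matrix-binding protein gene, with r of 0.9999, then Tmem179b (0.9997), Gfm2, a mitochondrial ribosome recycling factor gene (0.9996), Gcdh, encoding glutaryl-CoA dehydrogenase (0.9996), and Kif26a, of the kinesin family (0.9995). Banp went from 24.2 ± 0.815 to 6.51 ± 0.945 CPM, a log2 fold change of -1.91 ± 0.122. All 6 points share 1 contrast, so any gene that is lower under pressure with pressure replicate 3 nearest to controls scores high.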

How the data were processed

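RNA of 6 mouse LSEC samples (3 control, 3 pressure, 1 batch label) was sequenced from stranded mRNA libraries, per the labels' protocols. TopHat2 2.2.1, Cufflinks 2.2.1 and the build mm10 are named per the submitters' processing notes. How reads were assigned to genes, on which strand and with which annotation, is not given in the sources used here. Values are as deposited by the authors, namely estimated counts per gene symbol. Of these, 18.22 to 21.67% of the detected values in a library are fractional, so they were rounded for the fit. Genes were kept with filterByExpr (minimum count 10, minimum total 15), leaving 12892 of 24421, with 99.94% of counts. edgeR 4.0.16 (R 4.3.3) with TMM factors and the quasi-likelihood test compared pressure with control, with Benjamini-Hochberg adjusted p under 0.05 as the threshold over all genes. In simulated data for this comparison (12892 genes), the fit recovered 64.18% of 67 genes changed 1.5-fold, 92.54% of 67 changed 2-fold and 96.97% of 66 changed 4-fold, and 3.429% of calls were false. Far fewer genes were changed there than were called in the data (35.1% lower and 33.7% higher). No simulated library stood apart as pressure replicate 3 does, so these shares may not hold for the real contrast.

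The members and all gene lists were chosen with earlier results of these data known. Named genes were all members and up to 4 list or neighbour genes past the threshold with the smallest p. Further ones were the 3 most abundant of a marker list where shown and the nearest gene on each side. The 5 most alike genes, Pecam1 and Gata4 were named too. Other markers and Gabarapl2 were named after their values were seen. Alternatives were RLE, upper-quartile and no scaling factors, no low-count filter, DESeq2 1.42.0, limma-voom 3.58.1, unrounded counts, a replicate block, leaving out each library, summing Gimap3 with Gimap5, and a shorter promoter window. Positions and exon lengths are from GENCODE M21 (GRCm38), and promoters from RefSeq (GRCm38.p6).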

Additional observations from a re-analysis of the deposited data

How the results depend on the processing

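The 6 lower GIMAP genes stayed lower in every alternative listed above, while Gimap6, not called, went from 0.15 to -0.06 with library totals only. The count of higher GIMAP genes became 1 (Gimap6) with RLE factors and with DESeq2, and was 0 to 1 over the fits that left out 1 library, with 1 when pressure replicate 3 was left out. The members' median ranged from -1.84 to -1.70 over those fits and the count of lower members from 6 to 7. It was 7, with Gimap7 added, without control replicate 1, without pressure replicate 3, and with no low-count filter; without pressure replicate 1 or 2 Gimap7 was fitted (-2.61 and -1.67) but not called. With library totals only, the partner list had 7 lower and 3 higher genes and the interferon-inducible GTPases 3 higher; all genes then split into 3129 higher and 5887 lower, and 3629 and 5188 with upper-quartile factors, against 4347 and 4524. Whether sample numbers mark pairs of libraries could not be decided. Deviations of same-numbered libraries from their group means correlated at 0.129, -0.23 and -0.134, and not every library correlated best with its own number. With 3 libraries a group, such values are too few and too dependent on each other to exclude pairs. With the replicate block, 4315 genes were lower and 4069 higher, and 6 GIMAP genes lower and 0 higher. Exchanging AGGAAG for GGAAGT, chosen after seeing the data, took the members with a match from 7 to 4. Depth limits Gimap3 and Gimap7, which had at most 5.5 and 2 counts in a pressure library.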

Other observations

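Markers of other liver cells that the bead selection could carry over moved unevenly. Their called counts stand beside 35.1% lower and 33.7% higher of all genes tested. Of 5 tested dendritic cell genes, 1 fell and 1 rose. Clec9a, a receptor gene of cross-presenting dendritic cells, went from 19.5 ± 1.33 to 1.43 ± 0.236 CPM (log2 fold change -3.77 ± 0.155, edgeR adjusted p = 5.78e-08). The most negative GIMAP value was -3.27 ± 0.321 (Gimap3), and the difference between these 2 genes was not tested. Xcr1, a chemokine receptor gene of the same dendritic cells, rose from 0.281 ± 0.190 to 1.16 ± 0.485 CPM (log2 fold change 1.99 ± 0.492, edgeR adjusted p = 0.0042). Zbtb46, which did not pass the test, stood at 18.0 ± 0.620 and 16.2 ± 0.764 CPM (edgeR adjusted p = 0.173). The dendritic list summed to 46.4 to 52.9 CPM in controls and 27.2 to 30.9 CPM under pressure, and with library totals only 3 of its genes were lower. Hepatocyte genes summed to 7.2 to 10.2 CPM in controls and 13.9 to 17.4 CPM under pressure, with 2 of 3 tested genes higher (1 without control replicate 2). Alb, for serum albumin, stood at 6.40 ± 1.55 and 12.1 ± 1.54 CPM (edgeR adjusted p = 0.000883). Stellate cell genes summed to 143 to 154 CPM and 160.4 to 178 CPM, and of 7 tested Dcn rose while Acta2 and Des, muscle-type filament genes, fell; with library totals only none was called higher. The part of these cells in the GIMAP differences was not tested.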
